A study of Rattus norvegicus with 9 samples.

Results

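The 4 mature miRNAs described here are rno-miR-21-5p, known as a driver of fibrosis in the heart, and rno-miR-29a-3p, rno-miR-29b-3p and rno-miR-29c-3p, the family that represses collagen genes. They were taken by name from a deposited table of 1422 miRNA entries, and all 4 passed the expression filter that left 579 entries for testing. Of the tested entries 428 are annotated and 151 predicted, and the shares of all tested miRNAs given below cover both kinds. The table covers 9 small RNA libraries of primary neonatal rat cardiomyocytes, cultured from the hearts of SD rats aged 1 to 2 days and collected 48 h after adenovirus. Each group had 3 libraries: Ad-Yap WT (Yap1 overexpression), Ad-Yap shRNA (Yap1 knock down) and Ad-GFP, the control virus on a WT genotype. All 3 groups received an adenovirus, normal glucose is stated for the Yap groups, and none of them carried a non-targeting shRNA, so lower Yap and expression of an shRNA cannot be told apart in the Ad-Yap shRNA libraries. The labels number the replicates but do not state whether each had its own cell isolation, and the p-values below therefore cover only variation among these libraries, some of which could be technical.

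A miRNA guides the Argonaute complex to messenger RNAs through its seed, a short stretch near its 5′ end, and lowers the output of those messages. In the heart miR-21 is most abundant in fibroblasts, where it is known to repress Spry1, an inhibitor of growth factor signalling, and to favour fibroblast survival and fibrosis. The miR-29 family is also enriched in fibroblasts and targets messages for collagens, fibrillin and elastin, so its loss is known to raise matrix deposition. Yap, the transcriptional co-activator of the Hippo pathway, is itself known to drive matrix and growth genes.

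The mature sequences are shown because the family shares its seed and differs by few bases, which bears on how its reads can be told apart. They are given 5′ to 3′ from RefSeq (build GRCr8) with the seed, bases 2 to 8, in capitals.
miR-21-5p: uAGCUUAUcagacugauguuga
miR-29a-3p: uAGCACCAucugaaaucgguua
miR-29b-3p: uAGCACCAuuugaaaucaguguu
miR-29c-3p: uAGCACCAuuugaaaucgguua
The 3 miR-29 members share the seed AGCACCA, and no other mature miRNA of the RefSeq table carries it. The seed of miR-21-5p, AGCUUAU, was likewise found in no other entry there. Counting positions from 1 at the 5′ end, miR-29a-3p and miR-29c-3p differ by the single substitution C10U, while miR-29b-3p differs from miR-29c-3p by A18G, G21U and U22A and is 1 base longer (23 against 22). How the authors assigned reads that match more than 1 of these is not stated in the labels or the table, so the split between miR-29a-3p and miR-29c-3p is uncertain.

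The 4 miRNAs come from 5 precursor genes. Mir21 lies on chromosome 10, where miR-21-5p spans chr10:71902653-71902674 on the minus strand (GRCr8). Mir29a and Mir29b1 lie 291 bases apart on the minus strand of chromosome 4, with miR-29a-3p at chr4:60617968-60617989 and miR-29b-3p at chr4:60618342-60618364. Mir29b2 and Mir29c lie 447 bases apart on the plus strand of chromosome 13, with a second, identical copy of miR-29b-3p at chr13:109098882-109098904 and miR-29c-3p at chr13:109099412-109099433. A count of miR-29b-3p therefore adds up both loci.

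Summed miRNA reads were 1.93 to 2.95 M per library (M = 1000000) in Ad-Yap WT, 1.48 to 2.09 M in Ad-Yap shRNA and 3.5 to 3.6 M in Ad-GFP, so miRNA depth differed with the group. Levels below are CPM, reads per 1000000 miRNA reads after TMM scaling among the miRNAs, which sets the bulk of the miRNAs level between libraries. All 6 cardiomyocyte marker miRNAs were detected in every group, with summed levels of 46442 to 55163 CPM in Ad-Yap WT, 87511 to 104287 CPM in Ad-Yap shRNA and 46501 to 50169 CPM in Ad-GFP. With Ad-Yap shRNA against Ad-GFP 4 of the 6 were called higher, beside 24.0% of all tested miRNAs. miR-208a-3p (log2 fold change -0.09) and miR-208b-3p (0.39) were not called. After cyclic loess scaling 2 were higher, and with library size alone 1 was. With the deposited library totals 6 were lower and 0 higher. All 4 fibroblast markers (both arms of miR-199a and miR-214) were detected as well, at 13182 to 13837 CPM in Ad-Yap WT, 5137 to 5986 CPM in Ad-Yap shRNA and 14153 to 16497 CPM in Ad-GFP. Fewer cells of a type and less RNA per cell cannot be told apart in these bulk libraries. Summed endothelial markers (2 of 2 detected) stood at 5002 to 5852 (Ad-Yap WT), 6172 to 7429 (Ad-Yap shRNA) and 3581 to 4480 CPM (Ad-GFP), and blood cell markers (5 of 5) at 245 to 545, 334 to 439 and 479 to 658 CPM in the same groups. Smooth muscle markers summed to 13061 to 14790, 16454 to 21834 and 13867 to 14692 CPM. This sum joins opposite changes for Ad-Yap shRNA against Ad-GFP. miR-143-3p was lower (log2 fold change -0.32, edgeR adjusted p = 0.00827) and miR-145-5p higher (1.16, adjusted p = 0.00451). Neuronal markers summed to 61.3 to 64.5, 90.5 to 98.8 and 57.9 to 74.1 CPM in the same groups. Epithelial ones summed to 31.4 to 47.1 CPM over all libraries. Of these, miR-205 was at 0 in Ad-Yap WT, with 2 reads in the whole series. The epithelial sum hides a change of miR-429, which had 298 reads in the series. With Ad-Yap shRNA against Ad-GFP miR-429 was lower (log2 fold change -1.59, edgeR adjusted p = 0.000793). miR-200c-3p (0.29, adjusted p = 0.385) and miR-141-3p (0.27, adjusted p = 0.631) were not called. Between the Yap groups miR-429 was higher with Ad-Yap WT (1.45, edgeR adjusted p = 0.00165). Yap mRNA is not measured by a miRNA table, so the manipulation itself could not be checked.

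miR-21-5p was among the most abundant miRNAs of these cultures, and the miR-29 members stood well below it. By mean CPM it ranked 2 of 579 with Ad-Yap WT, 9 with Ad-Yap shRNA and 7 in Ad-GFP. miR-29a-3p ranked 52, 67 and 61, miR-29b-3p 78, 103 and 91, and miR-29c-3p 124, 137 and 126 in the same groups. Within each of the 9 libraries the order was miR-21-5p, miR-29a-3p, miR-29b-3p, miR-29c-3p, with no exception. How well each sequence is captured in a library was not measured, so these are orders of reads per mature miRNA.

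miR-21-5p had 26243, 40051 and 37164 CPM in the Ad-Yap WT libraries, 32075, 37105 and 40566 CPM with Ad-Yap shRNA and 21611, 20643 and 21690 CPM in Ad-GFP. Both Yap groups lay wholly above the control on this scale and overlapped each other. The lowest library of each Yap group was its deepest, replicate 1.

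miR-29a-3p, the most abundant family member, had 4375, 4161 and 4921 CPM with Ad-Yap WT, 3558, 3050 and 2862 CPM with Ad-Yap shRNA and 3534, 2078 and 3456 CPM in Ad-GFP. The Ad-Yap WT libraries were above all others, while the knock-down overlapped the control. miR-29b-3p had 2020, 1597 and 2316 CPM with Ad-Yap WT, 720, 836 and 1053 CPM with Ad-Yap shRNA and 1163, 873 and 1200 CPM in Ad-GFP. It too was highest in every Ad-Yap WT library, and the knock-down libraries reached into the control range. miR-29c-3p had 539, 437 and 557 CPM with Ad-Yap WT, 517, 450 and 437 CPM with Ad-Yap shRNA and 539, 323 and 552 CPM in Ad-GFP. Its 3 groups overlapped throughout. Replicate 2 of Ad-GFP was the lowest control library for all 3 family members, and the lowest of all 9 for miR-29a-3p and miR-29c-3p.

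**Figure D1:**
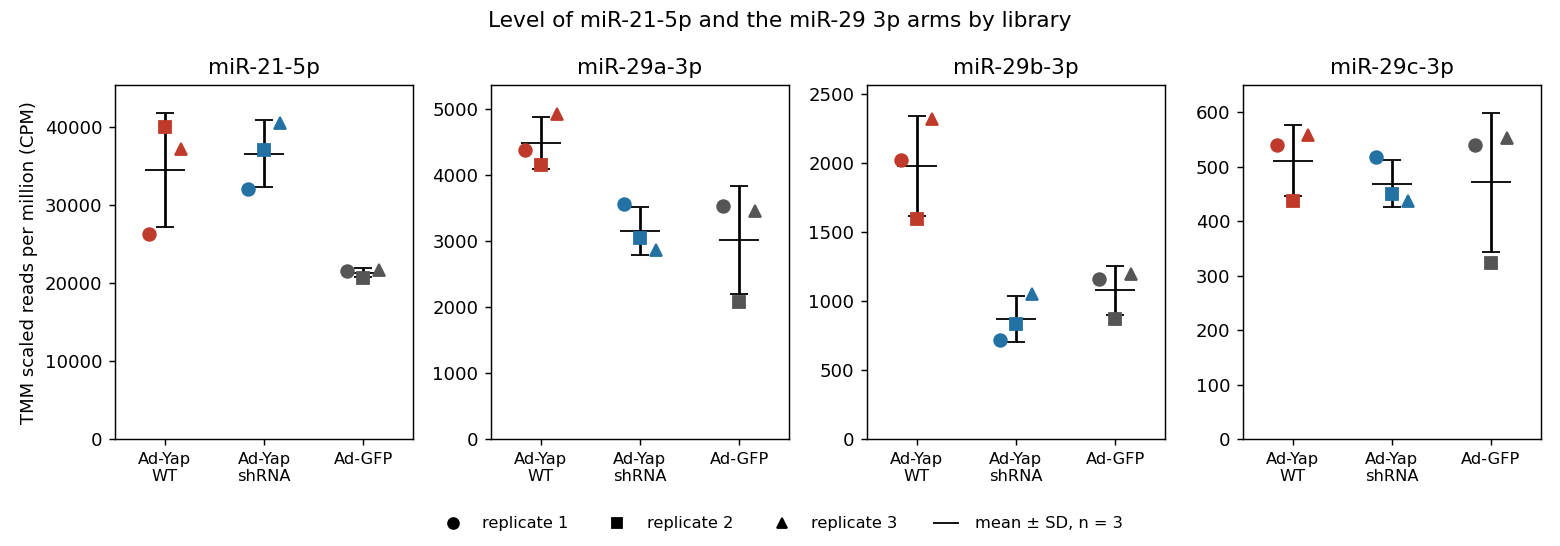
Level of each miRNA (CPM, TMM scaled, linear axis from 0) in the 9 libraries, by group; symbols are replicates and bars are mean ± SD over 3 libraries. miR-21-5p is above Ad-GFP in all 6 Yap libraries, miR-29b-3p is highest in the 3 Ad-Yap WT libraries, and miR-29c-3p overlaps between all groups.

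Ad-Yap WT was set against Ad-GFP to see which miRNAs differ when Yap is raised. miR-29b-3p rose, averaging 1978 ± 361 CPM with Ad-Yap WT and 1079 ± 179 CPM with Ad-GFP (SD, n = 3 each), 1.83-fold (0.87 on the log2 scale, SE 0.2, edgeR adjusted p = 0.0168). miR-21-5p rose 1.62-fold, at 34486 ± 7283 CPM with Ad-Yap WT and 21315 ± 583 CPM with Ad-GFP (log2 fold change 0.69, SE 0.16, adjusted p = 0.0201). miR-29a-3p averaged 4485 ± 392 CPM with Ad-Yap WT and 3023 ± 819 CPM with Ad-GFP and did not pass the threshold of 0.05 (log2 fold change 0.57, SE 0.2, adjusted p = 0.0722). miR-29c-3p averaged 511 ± 65 CPM with Ad-Yap WT and 471 ± 128 CPM with Ad-GFP (log2 fold change 0.12, SE 0.21, adjusted p = 0.742). In this comparison 25.0% of all tested miRNAs were called, 15.4% as higher and 9.67% as lower, so 2 higher members of 4 stood in a table where many miRNAs moved. The CPM of the libraries did not overlap for miR-21-5p, miR-29a-3p and miR-29b-3p, and 25.0% of all tested miRNAs lay likewise wholly above Ad-GFP. The call of miR-21-5p did not survive removal of any 1 Ad-GFP library (edgeR adjusted p = 0.0628, 0.0612 and 0.0548 for replicates 1, 2 and 3) or of replicate 2 (0.0588) or 3 (0.0665) of Ad-Yap WT, and it was lost without an expression filter (0.0603). For miR-29b-3p it ended when replicate 2 of Ad-GFP (0.0529) or replicate 3 of Ad-Yap WT (0.0527) was left out, and with library size alone (0.0672). miR-29a-3p did pass with DESeq2 (log2 fold change 0.55) and with a filter of at least 10 CPM in 3 libraries (0.58), while its sign turned with the deposited totals (-0.73).

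Ad-Yap shRNA was set against the same Ad-GFP libraries to see what differs when Yap is lowered, so the values of both comparisons share their controls. miR-21-5p rose 1.72-fold and was the sole member called, at 36582 ± 4270 CPM with Ad-Yap shRNA and 21315 ± 583 CPM with Ad-GFP (SD, n = 3 each; 0.78 on the log2 scale, SE 0.16, edgeR adjusted p = 0.00673). miR-29b-3p averaged 870 ± 169 CPM with Ad-Yap shRNA and 1079 ± 179 CPM with Ad-GFP (log2 fold change -0.31, SE 0.2, adjusted p = 0.249). miR-29a-3p averaged 3157 ± 360 and 3023 ± 819 CPM in Ad-Yap shRNA and Ad-GFP (log2 fold change 0.06, SE 0.2, adjusted p = 0.842), and miR-29c-3p 468 ± 43.1 and 471 ± 128 CPM (log2 fold change -0.01, SE 0.21, adjusted p = 0.978). No miR-29 member was called, where 41.8% of all tested miRNAs were, 24.0% as higher and 17.8% as lower. With library size alone miR-29b-3p was called lower (log2 fold change -0.92, edgeR adjusted p = 0.00674), and with the deposited totals all 3 were (-2.11 for miR-29a-3p, -2.55 for miR-29b-3p and -2.19 for miR-29c-3p, adjusted p = 0.00128, 0.000438 and 0.00175). miR-21-5p lay wholly above Ad-GFP by CPM, as did 30.9% of all tested. The rise of miR-21-5p remained called without any single library, with an adjusted p of at most 0.0256, but not with library size alone (log2 fold change 0.18, adjusted p = 0.136) or after cyclic loess scaling, which removes trends of fold change with abundance (0.16, adjusted p = 0.159). The summed fibroblast markers were lower in this group, as given above, and their part in the miR-21 and miR-29 values was not tested.

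Ad-Yap WT against Ad-Yap shRNA, which needs no shared control, gave the smallest adjusted p of any member. miR-29b-3p was 2.27-fold higher with Ad-Yap WT, at 1978 ± 361 CPM, than with Ad-Yap shRNA, at 870 ± 169 CPM (SD, n = 3 each; edgeR log2 fold change 1.19, SE 0.2, adjusted p = 0.00398). It ranked 49 of 579 from the highest log2 fold change. miR-29a-3p had the same sign without passing, at 4485 ± 392 CPM with Ad-Yap WT and 3157 ± 360 CPM with Ad-Yap shRNA (log2 fold change 0.51, SE 0.2, adjusted p = 0.0955). It did pass with DESeq2 (adjusted p = 0.0224), in a fit of these groups alone (0.0419), with library size alone (0.0351), with the deposited totals (0.0467) and without Ad-GFP replicate 2 (0.0164). miR-29c-3p was at 0.13 (SE 0.21, adjusted p = 0.697) and miR-21-5p at -0.09 (SE 0.16, adjusted p = 0.732) on the same log2 scale. Of all tested miRNAs 28.5% were called here, 14.2% as higher and 14.3% as lower. miR-29a-3p and miR-29b-3p did not overlap between these groups, as did 20.4% of all tested miRNAs in the same direction. The call of miR-29b-3p held in all 20 alternative fits, with log2 fold changes of 1.04 to 1.32 when single libraries were left out. The 3 tested fibroblast markers were also higher with Ad-Yap WT than with Ad-Yap shRNA. miR-199a-5p was 2.51-fold higher (edgeR adjusted p = 2.94e-05), miR-199a-3p 2.35-fold (0.000306) and miR-214-3p 1.99-fold (0.079, not called). Their part in the miR-29 values of this comparison was not tested.

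On the scale of the deposited RPM values, reads per 1000000 of a larger library total whose content is not stated, the picture against the control turned round. miR-21-5p had 5199, 3153 and 3927 RPM with Ad-Yap WT, 2801, 2280 and 2249 RPM with Ad-Yap shRNA and 6976, 6419 and 6633 RPM in Ad-GFP, so every Yap library lay below every control library. miR-29b-3p had 400, 126 and 245 RPM with Ad-Yap WT, 62.9, 51.4 and 58.4 RPM with Ad-Yap shRNA and 376, 271 and 367 RPM in Ad-GFP. The knock-down libraries were the lowest for this miRNA, and the overexpression libraries overlapped the control. All 4 members were wholly lower in Ad-Yap shRNA than in Ad-GFP by RPM, where 84.5% of all tested miRNAs were too, and 1 member, miR-21-5p, was wholly lower in Ad-Yap WT, beside 65.1% of all tested. With those totals as library sizes, edgeR put miR-21-5p at -0.71 with Ad-Yap WT (adjusted p = 0.0549) and -1.45 with Ad-Yap shRNA (adjusted p = 0.000999), and miR-29b-3p at -0.40 (adjusted p = 0.408) and -2.55 (adjusted p = 0.000438). The median of all 579 miRNAs moved by -1.29 and -2.19 on the log2 scale under the same totals.

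Changing the library sizes shifts the log2 fold changes of all miRNAs in a comparison by nearly the same amount. Distances from the median of all tested miRNAs could therefore hardly change with it, and they do not tell which scaling is right. miR-29b-3p stood 0.84 above that median for Ad-Yap WT against Ad-GFP with TMM and 0.87 above it with the deposited totals, and at -0.35 and -0.41 from it for Ad-Yap shRNA against Ad-GFP. miR-21-5p stood 0.66 and 0.56 above the median with Ad-Yap WT and 0.74 and 0.70 above it with Ad-Yap shRNA under these scalings. After cyclic loess scaling it stood 0.36 and 0.13 above the median, so its distance from other miRNAs depended on how abundance trends were treated. miR-29b-3p kept its distance there, at 0.86 from the median with Ad-Yap WT and -0.33 with Ad-Yap shRNA.

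**Figure D2:**
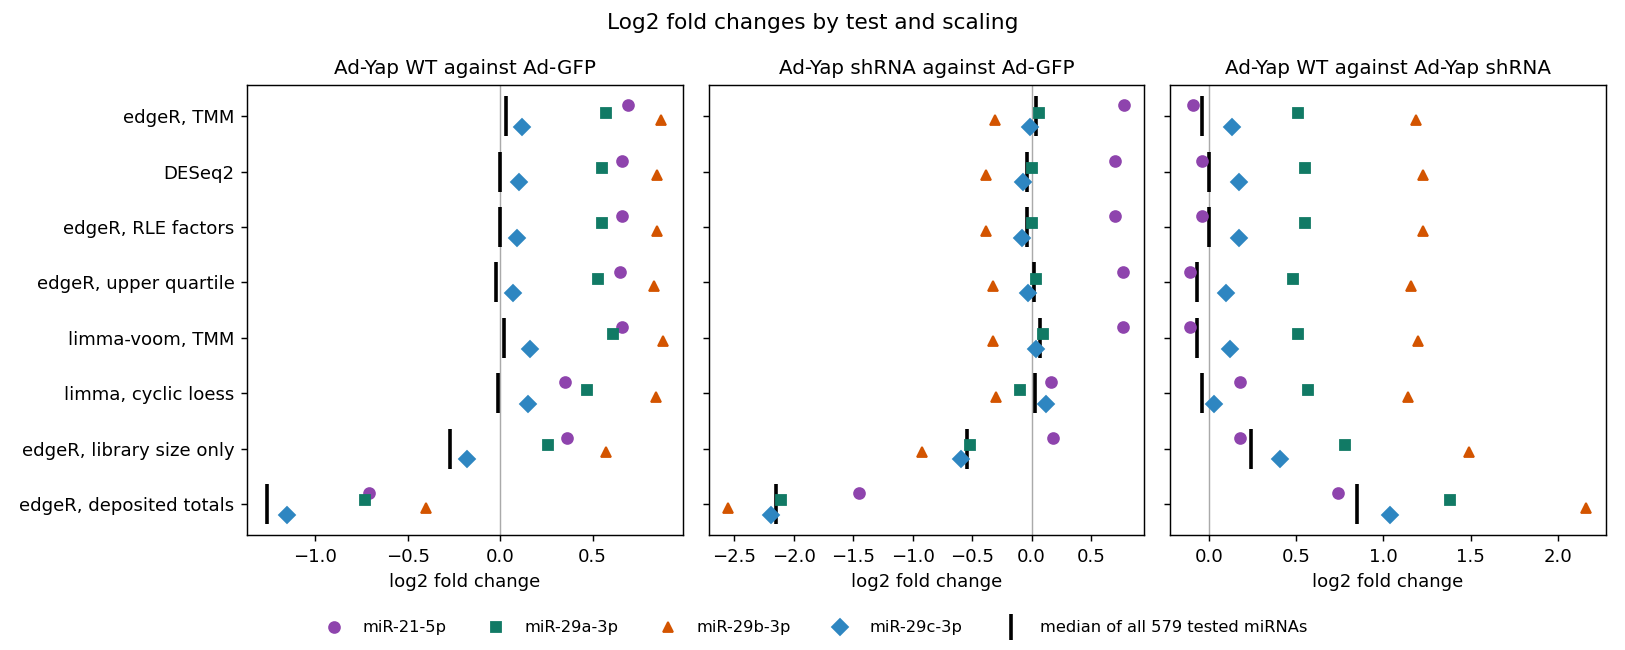
Log2 fold change (horizontal axis) of the 4 miRNAs under 8 combinations of test and scaling, 1 panel per comparison; the black bar marks the median of all 579 tested miRNAs. miR-29b-3p stays to the right of the bar for Ad-Yap WT against Ad-Yap shRNA throughout, from 1.14 to 2.16, while the sign of miR-21-5p against Ad-GFP turns with the deposited totals.

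Ratios of read counts inside 1 library need no library scaling factor, so they were used to see how the members moved against each other. They can still carry trends of fold change with abundance, and miR-21-5p was far more abundant than the miR-29 members. After cyclic loess scaling, Ad-Yap shRNA against Ad-GFP had log2 fold changes of 0.16 for miR-21-5p, -0.1 for miR-29a-3p, -0.3 for miR-29b-3p and 0.12 for miR-29c-3p. For each summed miR-29 3p read there were 3.78, 6.47 and 4.77 miR-21-5p reads in the Ad-Yap WT libraries, 6.69, 8.56 and 9.32 with Ad-Yap shRNA and 4.13, 6.31 and 4.17 in Ad-GFP. Every knock-down library had more miR-21-5p per miR-29 read than any other library, and overexpression overlapped the control. Within each Yap group this ratio rose as miRNA depth fell, and the shallowest library of the series was in Ad-Yap shRNA. The part of depth in this ratio was not tested. The mean ratio was 1.7-fold higher in Ad-Yap shRNA than in Ad-GFP (log2 difference 0.77), with a two-sided exact permutation p of 0.1, the smallest that 3 libraries against 3 allow. Ad-Yap WT had a lower ratio than Ad-Yap shRNA (log2 difference -0.73, exact permutation p = 0.1), and against Ad-GFP the log2 difference was 0.04 (exact permutation p = 0.9). No ratio could pass a threshold of 0.05 in this design, and after Benjamini-Hochberg adjustment over the 12 ratio tests the smallest value was 0.171.

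Within the family the members did not keep fixed proportions. There were 0.462, 0.384 and 0.471 miR-29b-3p reads per miR-29a-3p read with Ad-Yap WT, 0.202, 0.274 and 0.368 with Ad-Yap shRNA and 0.329, 0.42 and 0.347 in Ad-GFP. Overexpression lay wholly above knock-down, by 1.6-fold (log2 difference 0.68, exact permutation p = 0.1), and both overlapped the control (exact permutation p = 0.2 for Ad-Yap WT and 0.3 for Ad-Yap shRNA). miR-29c-3p per miR-29a-3p read was the tightest ratio, at 0.123, 0.105 and 0.113 with Ad-Yap WT, 0.145, 0.148 and 0.153 with Ad-Yap shRNA and 0.153, 0.156 and 0.16 in Ad-GFP. It was lower in all 3 Ad-Yap WT libraries than in the other 6, with log2 differences of -0.46 from Ad-GFP and -0.39 from Ad-Yap shRNA (exact permutation p = 0.1 each). Ad-Yap shRNA differed from Ad-GFP by -0.07 (exact permutation p = 0.1). miR-29a-3p thus had more reads per miR-29c-3p read in every Ad-Yap WT library than in any other, a ratio that also rests on how the authors assigned their near-identical reads.

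**Figure D3:**
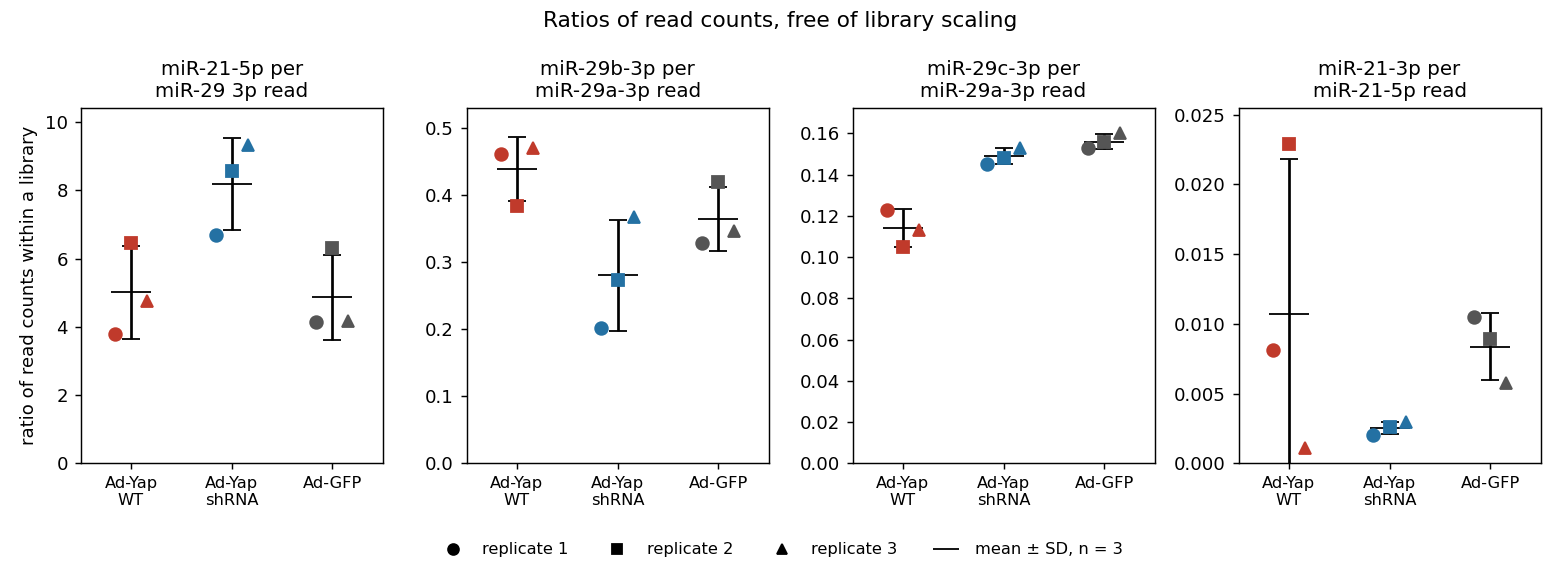
Ratios of read counts within a library (linear axes from 0), by group; symbols are replicates and bars are mean ± SD over 3 libraries, the lowest of which is cut at 0. miR-21-5p per miR-29 read is highest in the 3 Ad-Yap shRNA libraries (6.69 to 9.32), and miR-29c-3p per miR-29a-3p read is lowest in the 3 Ad-Yap WT libraries (0.105 to 0.123).

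Raw reads of the members followed depth unequally between replicates. In Ad-Yap WT the deepest library, replicate 1, had 1.53 times the miRNA reads of the shallowest, replicate 2. It had 1.25 times its miR-21-5p reads (86945 against 69538) but 2.01 times its miR-29a-3p, 2.41 times its miR-29b-3p and 2.36 times its miR-29c-3p reads. In Ad-Yap shRNA, where replicate 1 had 1.41 times the miRNA reads of replicate 3, the read ratios were 1.29 for miR-21-5p, 2.02 for miR-29a-3p, 1.11 for miR-29b-3p and 1.93 for miR-29c-3p. miR-21-5p reads thus varied less than depth, and those of miR-29a-3p and miR-29c-3p more, in both Yap groups. The Ad-GFP libraries were within 1.03-fold in depth, yet replicate 2 had 9261 miR-29a-3p reads, against 15685 and 14598 in replicates 1 and 3. In miRNA reads the Yap libraries were all shallower than the control libraries. Group and miRNA depth therefore cannot be told apart against Ad-GFP for any member or ratio. The deposited library totals ran the other way, at 16.72 to 22.05 M in Ad-Yap WT, 20.53 to 21.21 M in Ad-Yap shRNA and 13.75 to 14.33 M in Ad-GFP. The listed miRNAs made up 8.76 to 17.63%, 7.22 to 9.87% and 24.64 to 26.18% of these totals in the same groups. The cause of this lower share in the Yap groups was not tested.

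**Figure D4:**
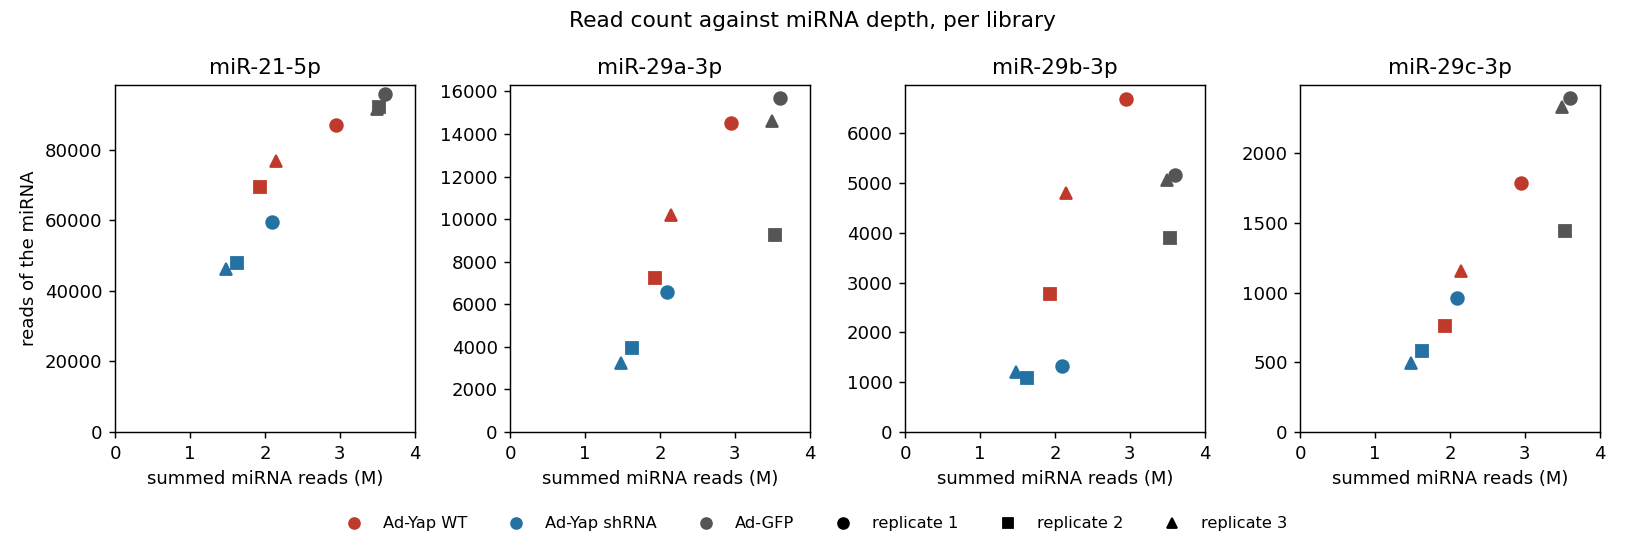
Reads of each miRNA against the summed miRNA reads of the library (M = 1000000), 1 point per library, coloured by group. Ad-Yap WT replicate 1, at 2.95 M, has 6692 miR-29b-3p reads, more than any control library, and fewer miR-21-5p reads (86945) than any of them.

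The opposite arms of the precursors gave far fewer reads, except for miR-29c. Over all 9 libraries there were 360 miR-29a-3p reads for each miR-29a-5p read and 352 miR-29b-3p reads for each miR-29b-5p read, but 5.9 miR-29c-3p reads for each miR-29c-5p read. The passenger arms are the means to tell the miR-29b loci apart, since they differ in sequence.
miR-29b-5p (Mir29b2): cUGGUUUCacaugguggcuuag
miR-29b-1-5p (Mir29b1): uUUCAUAUggugguuuagauuu
miR-29b-5p had 15, 3 and 7 reads with Ad-Yap WT, 7, 1 and 4 with Ad-Yap shRNA and 25, 17 and 12 in Ad-GFP. miR-29b-1-5p had 1 read in Ad-GFP replicate 1 and 0 in the other 8 libraries, where 0 reads allow up to 3 reads, or 0.673 to 2.64 CPM (counting error only). These counts are too low to divide the change in miR-29b-3p between its loci at this depth.

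miR-29c-5p had 73, 75.5 and 60.9 CPM with Ad-Yap WT, 98.3, 99 and 91.4 CPM with Ad-Yap shRNA and 86.1, 86.1 and 80 CPM in Ad-GFP. It was lower with Ad-Yap WT than with Ad-Yap shRNA (-0.46 on the log2 scale, SE 0.13, edgeR adjusted p = 0.0307). That call was lost when Ad-GFP replicate 1, either of replicates 1 and 3 of Ad-Yap WT, or any Ad-Yap shRNA library was left out (adjusted p = 0.0563 to 0.1), with library size alone (-0.18, adjusted p = 0.505), without a filter (0.196) and in a fit of these groups alone (0.0596), and the sign turned with the deposited totals (0.44). It was not called against Ad-GFP, at -0.27 with Ad-Yap WT (adjusted p = 0.155) and 0.19 with Ad-Yap shRNA (adjusted p = 0.259). With Ad-Yap WT it was called lower under library size alone (adjusted p = 0.0485) and the deposited totals (0.0233), and with Ad-Yap shRNA those scalings turned its sign, to -0.40 (adjusted p = 0.101) and -2.0 (0.00275).

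miR-21-3p, the passenger arm of miR-21, varied widely between the Ad-Yap WT libraries. It had 708, 1590 and 84 reads with Ad-Yap WT, 123, 126 and 136 with Ad-Yap shRNA and 1007, 819 and 526 in Ad-GFP. The Ad-Yap WT libraries held both the lowest and the highest count of the series, and the knock-down libraries were all below the control, by CPM too, where 24.4% of all tested miRNAs lay wholly lower. Per miR-21-5p read the arm stood at 0.00814, 0.0229 and 0.00109 with Ad-Yap WT, 0.00207, 0.00263 and 0.00295 with Ad-Yap shRNA and 0.0105, 0.0089 and 0.00574 in Ad-GFP. This ratio was 0.31 times as high in Ad-Yap shRNA as in Ad-GFP (log2 difference -1.69, exact permutation p = 0.1). The edgeR test of the arm itself did not pass in any comparison, with log2 fold changes of 1.13 (SE 0.89, adjusted p = 0.391) for Ad-Yap WT over Ad-GFP, -0.92 (SE 0.9, adjusted p = 0.45) for Ad-Yap shRNA over Ad-GFP and 2.05 (SE 0.92, adjusted p = 0.136) for the Yap groups. For Ad-Yap WT over Ad-GFP the sign turned with the deposited totals (-0.50) and without Ad-Yap WT replicate 2 (-0.49). The arm did pass for Ad-Yap shRNA against Ad-GFP in a fit of those groups alone (adjusted p = 0.0474) and with the deposited totals (0.00264), and between the Yap groups with those totals (0.0325) and without Ad-Yap WT replicate 3 (0.0227).

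Other miRNAs linked to fibrosis moved in both directions. Of 9 reported to promote it, 8 were tested, and with Ad-Yap WT 3 rose, 2 fell and 3 did not pass, with a median log2 fold change of 0.09 beside 0.03 for all tested miRNAs, of which 15.4% rose and 9.67% fell. With library size alone 2 of the 8 rose and 3 fell, and with the deposited totals 1 rose and 4 fell. miR-155-5p, an inflammation linked miRNA, rose by 0.83 (edgeR adjusted p = 0.0123), and miR-34a-5p, known to be induced by p53, by 0.94 (adjusted p = 0.0163), but at -0.45 and -0.43 both turned sign with the deposited totals. miR-155-5p did not pass with library size alone (adjusted p = 0.0862), and miR-34a-5p was lost without Ad-Yap WT replicate 2 or 3 (adjusted p = 0.0547 and 0.0623). miR-328a-3p fell by 0.77 (edgeR adjusted p = 0.000644) and miR-433-3p fell by 0.87 (adjusted p = 0.00681). The remaining rise, miR-125b-5p, is uncertain, since its reads ran from 188 to 36602 within Ad-Yap WT and the call was lost in 7 of 9 runs without 1 library (adjusted p = 0.064 to 0.146, the exceptions being replicate 2 of Ad-Yap WT and replicate 3 of Ad-Yap shRNA). With Ad-Yap shRNA 3 of the 8 rose and 3 fell (median 0.22, beside 0.04 for all, of which 24.0% rose and 17.8% fell), but 1 rose and 3 fell with library size alone or cyclic loess, and 1 rose and 7 fell with the deposited totals. The lowest p belonged to the fibroblast miRNA miR-199a-5p, at 4125 ± 127 CPM against 11754 ± 884 CPM in Ad-GFP (log2 fold change -1.51, adjusted p = 2.04e-05). The 3 rises with Ad-Yap shRNA were miR-34a-5p (0.91, edgeR adjusted p = 0.00949), miR-155-5p (0.53, adjusted p = 0.0379) and miR-125b-5p (7.78, SE 2.3, adjusted p = 0.0268). In 9 runs without 1 library the call of miR-155-5p was lost 5 times and that of miR-125b-5p 4 times. Between the Yap groups miR-199a-5p alone of the 8 was called, higher with Ad-Yap WT (log2 fold change 1.33, adjusted p = 2.94e-05), where 14.2% of all tested were called higher.

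Of 15 miRNAs reported to restrain fibrosis, 14 were tested. With Ad-Yap WT 4 rose and 1 fell (median 0.33, beside 0.03 for all), and with Ad-Yap shRNA 10 rose and 1 fell (median 0.76, beside 0.04 for all). Of all tested miRNAs 15.4% rose and 9.67% fell with Ad-Yap WT, and 24.0% rose and 17.8% fell with Ad-Yap shRNA. Under library size alone these counts were 0 and 1 with Ad-Yap WT and 5 and 3 with Ad-Yap shRNA, and with the deposited totals 0 rose while 10 fell with Ad-Yap WT and 13 with Ad-Yap shRNA. With Ad-Yap WT miR-18a-5p (0.54, adjusted p = 0.00402), miR-19b-3p (0.44, adjusted p = 0.0124) and let-7i-5p (0.54, adjusted p = 0.0304) rose, and the muscle miR-133a-3p fell by 0.31 on the log2 scale (adjusted p = 0.031), of which miR-18a-5p alone remained called without any single library, though not with library size alone (adjusted p = 0.281) or without a filter (0.125), and its sign turned with the deposited totals (-0.74). Among the 10 were the muscle miR-1-3p, at 30251 ± 4445 CPM in Ad-Yap shRNA and 17109 ± 1166 CPM in Ad-GFP (log2 fold change 0.82, adjusted p = 0.00158), miR-133a-3p (0.56, adjusted p = 0.00158), miR-26a-5p (1.07, adjusted p = 0.00163) and miR-19b-3p (0.74, adjusted p = 0.000793). All 4 had a negative log2 fold change with the deposited totals, from -1.17 to -1.65, and miR-133a-3p also with library size alone (-0.04), where miR-1-3p and miR-19b-3p did not pass (adjusted p = 0.161 and 0.34). Cyclic loess ended the calls of miR-133a-3p (0.13, adjusted p = 0.167) and miR-1-3p (0.28, adjusted p = 0.0595). The 1 that fell, miR-101a-3p, was at 25.1 ± 1.08 CPM in Ad-Yap shRNA and 38.9 ± 10.4 CPM in Ad-GFP (log2 fold change -0.63, adjusted p = 0.0495), a call lost without any single library but Ad-GFP replicate 2 (adjusted p = 0.0521 to 0.147). Between the Yap groups 5 of the 14 were lower with Ad-Yap WT and 1 higher, among them miR-133a-3p (-0.87, adjusted p = 0.000344), miR-1-3p (-0.85, adjusted p = 0.00206), miR-30c-5p (-1.18, adjusted p = 0.00675) and miR-30a-5p (-1.03, adjusted p = 0.0097), where 14.3% of all tested were called lower and 14.2% higher. With library size alone 4 of the 14 were lower and 3 higher. With the deposited totals 2 were higher and 0 lower, and all 4 of these calls were lost, at 0.03 for miR-133a-3p (adjusted p = 0.956), 0.05 for miR-1-3p (0.93), -0.28 for miR-30c-5p (0.608) and -0.16 for miR-30a-5p (0.757). miR-29b-3p moved the other way between the Yap groups, at 1.19. The remaining calls of the 14 there were miR-19b-3p, lower (-0.3, edgeR adjusted p = 0.0386), and miR-18a-5p, higher (0.26, adjusted p = 0.0426). They were lost in 7 and 8 of the 9 runs without 1 library.

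The annotated miRNAs whose CPM pattern over the 9 libraries lay closest to each member differed from member to member. Likeness was the root mean square difference of log2 CPM after centring each miRNA on its own mean, among 211 miRNAs with at least 100 CPM on average. For miR-21-5p the closest were miR-99a-5p (0.0963), let-7c-5p (0.11) and miR-16-5p (0.119 log2 units), all abundant. For miR-29a-3p they were miR-582-5p (0.184), miR-29c-3p (0.21) and miR-155-5p (0.212). For miR-29b-3p they were miR-449a-5p (0.259), miR-222-3p (0.277) and miR-384-5p (0.282), and for miR-29c-3p miR-374-5p (0.117), miR-532-5p (0.183) and miR-98-5p (0.184). miR-29b-3p was 0.363 from miR-29a-3p and 0.491 from miR-29c-3p, which held places 11 and 35 of 211 by closeness to it. miR-29c-3p held place 2 from miR-29a-3p, and miR-29a-3p held place 6 from miR-29c-3p. Whether these distances exceed the spread between replicates was not tested.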

How the data were processed

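Per the labels' protocols, small RNA libraries were made from total RNA (MGIEasy kit), selected by size and sequenced from 1 end to 50 bases. Bowtie2, DESeq2 and the rn6 build are named, without versions or roles, per the submitters' processing notes. The deposited table gives raw read counts per miRNA, and beside them expression values that scale with the counts of a library as RPM do. Dividing counts by RPM (counts over 1000) gives library totals of 13.75 to 22.05 M, above the summed miRNA counts, and what they count is not stated. All per-sample columns matched 1 sample, and 769 of the 1422 entries are predicted.

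Counts were tested with edgeR 4.0.16 (R 4.3.3): filterByExpr, TMM, glmQLFit and glmQLFTest over all 9 libraries with 1 mean per group, two-sided, Benjamini-Hochberg over 579 entries (common biological CV 45.1%). The SE was taken as |log2 fold change| over the root of the F statistic. Ratios were compared by exact permutation. Alternatives used DESeq2 1.42.0, limma 3.58.1, other factors, filters and fits, and each library left out. Log2 CPM used a prior count of 2. In 1 simulated data set per comparison of 579 entries with 200 changed, 39.4% of 2-fold and 87.8% of 4-fold changes were recovered for Ad-Yap WT against Ad-GFP, and 5.38% of calls were false. For Ad-Yap shRNA against Ad-GFP these were 40%, 85.4% and 2.4%, and for Ad-Yap WT against Ad-Yap shRNA 47.5%, 83.2% and 1.56%. Whether these shares hold with the deposited totals, library size alone or cyclic loess was not tested. No replicate pair was identical (chi-square per degree of freedom of at least 99).

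Members and lists were chosen with earlier results of these data known. Beyond the members, named miRNAs are the other arms, cell type markers, up to 4 called entries of each fibrosis list by smallest p, and the 3 closest patterns per member. miR-101a-3p, miR-125b-5p, miR-429, miR-200c-3p and miR-141-3p were added after their values were seen. RefSeq sequences matched 587 of 653 annotated entries. Since PCR copies are counted as reads, limits from counts cover counting error only.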

Additional observations from a re-analysis of the deposited data

How the results depend on the processing

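Of 240 alternative fold changes of the members, 193 kept their direction and their side of the threshold, 26 changed sign, 11 lost the call and 10 gained it. Of 60 alternative counts of calls, 53 were within 1.5 times the reported count. Of 90 alternative ratio values 85 kept their sign, and none of the ratio tests could pass 0.05. The call of miR-29b-3p between the Yap groups was kept in every one of its alternatives. The deposited library totals shifted all miRNAs together: Ad-Yap WT against Ad-GFP then gave 322 calls in place of 145 (10 higher and 312 lower in place of 89 and 56) and log2 fold changes of -0.71 for miR-21-5p, -0.73 for miR-29a-3p, -0.40 for miR-29b-3p and -1.15 for miR-29c-3p. Ad-Yap shRNA against Ad-GFP gave 493 calls in place of 242 (14 higher and 479 lower in place of 139 and 103), with -1.45, -2.11, -2.55 and -2.19 for the same miRNAs. Ad-Yap WT against Ad-Yap shRNA gave 0.74 for miR-21-5p and 1.38 for miR-29a-3p, with 110 calls higher and 8 lower in place of 82 and 83. Library size alone gave 0.57 for miR-29b-3p (call lost) and -0.18 for miR-29c-3p with Ad-Yap WT, 0.18 for miR-21-5p (call lost), -0.52 for miR-29a-3p and -0.92 for miR-29b-3p (now called) with Ad-Yap shRNA, and 0.18 for miR-21-5p and 0.78 for miR-29a-3p between the Yap groups. Its medians over all miRNAs moved by -0.3, -0.58 and 0.28, and its calls were 51 higher and 104 lower, 66 and 221, and 114 and 38.

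Cyclic loess gave 0.16 for miR-21-5p (call lost), -0.10 for miR-29a-3p and 0.12 for miR-29c-3p with Ad-Yap shRNA, and 0.18 for miR-21-5p between the Yap groups. Without a filter, Ad-Yap WT against Ad-GFP had 90 calls and miR-21-5p at 0.57 (call lost), and miR-29a-3p with Ad-Yap shRNA was at -0.025. miR-29a-3p with Ad-Yap shRNA was at -0.0026 with DESeq2 and -0.0028 with RLE factors. miR-29a-3p passed for Ad-Yap WT against Ad-GFP under DESeq2 (0.55) and with at least 10 CPM in 3 libraries (0.58), and between the Yap groups with DESeq2 (0.55) and in a fit of 2 groups (0.48). miR-29c-3p with Ad-Yap shRNA was at 0.036 with limma-voom. The cause of these changes was not tested.

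Without 1 library at a time, Ad-Yap WT against Ad-GFP gave 71 to 148 calls (71 without Ad-Yap WT replicate 3, and 83, 96 and 96 without Ad-GFP replicates 1, 2 and 3), with 0.57 to 0.86 for miR-21-5p, 0.75 to 1.00 for miR-29b-3p and -0.09 to 0.25 for miR-29c-3p. Ad-Yap shRNA against Ad-GFP gave -0.15 to 0.18 for miR-29a-3p and -0.22 to 0.12 for miR-29c-3p, and the Yap groups gave -0.20 to 0.09 for miR-21-5p and 0.41 to 0.57 for miR-29a-3p. For Ad-Yap WT against Ad-GFP the log2 ratio of miR-21-5p to summed miR-29 ran from -0.17 to 0.24, and was -0.20 with miR-29b-3p alone as denominator, and that of miR-21-3p to miR-21-5p ran from -1.45 to 0.75.

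The replicate numbers were not treated as pairs: the deviations of same-numbered libraries correlated from -0.34 to 0.34. A replicate block gave 132, 228 and 160 calls in the order of the comparisons above, put miR-29c-3p with Ad-Yap shRNA at 0.025 and changed no call of a member. Depth limits the passenger arms miR-29a-5p (8 to 51 reads per library) and miR-29b-5p (1 to 25 reads).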
